A study of Mus musculus with 24 samples.

Results

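Loxl2, which encodes the secreted enzyme lysyl oxidase-like 2, was examined together with 6 genes that lie near it on mouse chromosome 14. These were Slc25a37, Entpd4 and Entpd4b on one side, and R3hcc1, Chmp7 and Rhobtb2 on the other. The 7 genes were taken by symbol from both count tables, out of 55254 genes, and all 7 were found. They were picked because of their read counts in the knockout libraries, so their differences between genotypes are given below as a description, with the fold change and its standard error (SE) and without a p-value. The study sequenced nuclear RNA from hippocampal nuclei of mice that lack DNA glycosylases, the enzymes that remove oxidised bases or their mispaired partners from DNA. Nuclei were sorted by flow cytometry into NeuN+ nuclei, which are neuronal, and NeuN- nuclei, which are mostly glial. Each fraction was profiled in wild type (WT), Mutyh-/-, Ogg1-/- and double-knockout mice (DKO, lacking both Ogg1 and Mutyh), with 3 replicates per group and 24 libraries in all. All mice were C57BL/6N males of 6 months, kept in their home cage. The nuclei of several animals of 1 genotype were pooled, and although independent biological replicates are stated for the study in general, which animals went into which RNA library is not given in the sources used here, so the spread between replicates may be partly technical. NeuN+ and NeuN- libraries ran on different sequencing lanes, so the lane cannot be told apart from the fraction.

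LOXL2 oxidises lysine residues of collagens and elastin, which lets these matrix proteins form cross-links, and it has also been described in the nucleus. Slc25a37 encodes mitoferrin-1, the carrier that brings iron into mitochondria for haem and iron-sulphur cluster synthesis and is best known from erythroid cells. Entpd4 and Entpd4b encode ectonucleoside triphosphate diphosphohydrolase 4, a nucleotidase of the Golgi and lysosomal membranes. Chmp7 encodes a member of the ESCRT-III machinery that helps reseal the nuclear envelope. Rhobtb2 encodes an atypical GTPase that acts as an adaptor of the cullin 3 ubiquitin ligase and is linked to a developmental epilepsy. R3hcc1 encodes a protein with an R3H nucleic-acid-binding domain and a coiled coil, whose role is less well described.

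On GRCm38, the build of the deposited tables, the 7 genes span 564 kb. Slc25a37 occupies chr14:69241848-69285112 on the minus strand. Entpd4 lies at chr14:69337174-69367270 and Entpd4b at chr14:69555424-69585520, both on the plus strand. Loxl2 follows at chr14:69609068-69695834 on the plus strand. R3hcc1 begins 1472 bases beyond the annotated end of Loxl2, at chr14:69697307-69707584. Chmp7, at chr14:69717000-69732541, and Rhobtb2, at chr14:69784990-69805636, come next, and all of the last 3 genes are on the minus strand.

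The reference holds the stretch from Slc25a37 to Loxl2 partly as a tandem repeat, which bears on what can be counted for these genes. 8 pairs of gene models lie 218214 to 218275 bases apart, among them Entpd4 with Entpd4b and Gm21451, an unprocessed pseudogene at chr14:69390854-69480287, with Loxl2. Transcripts of Entpd4 and Entpd4b, each of 13 exons, were identical over all 3589 bases. Bases 217 to 306, which begin with the start codon in capitals, show a stretch in which no base tells these genes apart:
Entpd4: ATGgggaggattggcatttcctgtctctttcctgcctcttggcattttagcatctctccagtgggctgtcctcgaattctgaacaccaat
Entpd4b: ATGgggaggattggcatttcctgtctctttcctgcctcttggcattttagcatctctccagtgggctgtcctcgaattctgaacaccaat

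The main Loxl2 transcript, 5316 bases in 14 exons, was identical to that of Gm21451 over 2348 bases, from its base 62 to its base 2409, and the sequences then parted inside the Loxl2 coding region. The following 100 bases, 2350 to 2449 of the Loxl2 transcript and 2289 to 2388 of the Gm21451 transcript, span that point, with the identical part in lower case and the part that differs in capitals:
Loxl2: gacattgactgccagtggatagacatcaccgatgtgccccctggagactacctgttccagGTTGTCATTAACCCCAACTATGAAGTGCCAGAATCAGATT
Gm21451: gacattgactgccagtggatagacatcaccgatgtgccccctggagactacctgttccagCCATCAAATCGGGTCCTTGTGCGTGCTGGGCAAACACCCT

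Slc25a37 shared its first 382 transcript bases, which hold its start codon, with Gm16867, a gene model on the minus strand at chr14:69363504-69503362. Bases 172 to 261 of both transcripts begin with that start codon in capitals and are identical:
Slc25a37: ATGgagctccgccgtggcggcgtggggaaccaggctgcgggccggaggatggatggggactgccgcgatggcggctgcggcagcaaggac
Gm16867: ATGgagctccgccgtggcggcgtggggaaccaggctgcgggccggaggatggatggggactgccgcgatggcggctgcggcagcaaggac

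Counted over all annotated transcripts, 100% of the 100-base words of Entpd4 and of Entpd4b also occurred in another gene. The share was 42.8% for Loxl2 and 6.11% for Slc25a37, and it was 0% for R3hcc1, Chmp7 and Rhobtb2. How reads with several matching places were counted, and whether strand was used, is not given in the sources used here. Entpd4 and Entpd4b are therefore to be read as 1 measurement reported under 2 names, and part of the Loxl2 count is shared with Gm21451. Gm16867 and Gm27177 also run antisense to Gm21451 and Loxl2, and over the ends of Entpd4 and Entpd4b. Words that occurred antisense in another gene made up 26.1% for Entpd4 and for Entpd4b, 4.66% for Slc25a37 and 2.75% for Loxl2. Without strand, reads of such parts cannot be told apart.

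Total counts ranged from 56563586 to 96192142 per library, with a median of 70434612. Levels are given as CPM, the read count scaled to a common library total, after TMM scaling within each fraction. The sort was reflected in the markers of the cell types: the summed level of 6 neuronal markers was 4456 to 5190 CPM in NeuN+ and 260 to 383 CPM in NeuN- libraries, and that of 5 oligodendrocyte markers was 117 to 140 CPM and 4501 to 6765 CPM. Mutyh read counts went against the direction that the word knockout implies. Mutyh RNA was at 9.06 to 10.7 CPM in the NeuN+ libraries labelled Mutyh-/- and at 1.05 to 1.18 CPM in WT, and at 10.1 to 10.5 against 2.60 to 3.07 CPM in NeuN-. It was also higher in the DKO libraries, at 7.21 to 11.1 CPM over both fractions. Ogg1 RNA did not pass the test in any of the 6 comparisons with WT. Counts per whole gene do not show whether the deleted exons were read, so they cannot check the knockouts, and genotypes below are those of the labels.

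In the chromosome 14 genes, 1 library of the DKO group stood apart in each fraction. DKO replicate 3 had 2767 Loxl2 counts in NeuN+ nuclei against 28 and 44 in DKO replicates 1 and 2, and 4222 in NeuN- nuclei against 400 and 320. The differences of DKO from WT are therefore given with and without that replicate for the genes it sets apart. In NeuN-, the same library also held the highest summed level of 3 choroid plexus markers, 181 CPM, against 5.90 CPM in DKO replicate 1, 29.7 to 52.7 CPM in WT, 15.8 to 19.1 CPM in Mutyh-/- and 7.73 to 82.7 CPM in Ogg1-/-, but in NeuN+ all DKO libraries were within 13.0 to 14.7 CPM. Among the NeuN- libraries it was also the highest for 4 endothelial and pericyte markers, at 78.9 CPM where the lowest library had 59.8 CPM. It was the lowest for 5 oligodendrocyte markers, at 4501 CPM with the highest at 6765 CPM, for 5 microglial markers, at 443 CPM with the highest at 577 CPM, and for 4 erythroid markers, at 30.8 CPM with the highest at 42.7 CPM. In NeuN+ it was the lowest for 5 astrocyte markers, at 269 CPM with the highest at 354 CPM. The Mutyh-/- libraries were below WT for the choroid plexus markers in NeuN- and above WT for the neuronal markers in NeuN+, at 4846 to 5190 CPM against 4456 to 4809 CPM, and overlapped WT for the other lists of cell type markers in each fraction. The part of these cell types in the values of DKO replicate 3 and of Mutyh-/- was not tested.

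Loxl2 was at a low level in WT neuronal nuclei and at a far higher one in the libraries labelled Mutyh-/-. In NeuN+, WT replicates 1 to 3 were at 0.594, 0.734 and 0.445 CPM, from 40, 49 and 29 counts. The Mutyh-/- libraries were at 126, 91.8 and 136 CPM, from 7730, 5095 and 10618 counts. The Ogg1-/- libraries were at 0.675, 0.587 and 0.867 CPM, and DKO at 0.394, 0.579 and 34.1 CPM. All 3 Mutyh-/- libraries and DKO replicate 3 were thus above every other NeuN+ library, the Ogg1-/- libraries overlapped WT, and DKO replicate 3 was below every Mutyh-/- library.

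The NeuN- libraries repeated this order from a higher base. Loxl2 was at 3.69, 4.54 and 3.96 CPM in WT and at 211, 145 and 238 CPM in Mutyh-/-. In Ogg1-/- it was at 3.85, 5.95 and 7.17 CPM, and in DKO at 4.42, 5.31 and 68.4 CPM. The same 4 replicates, Mutyh-/- 1 to 3 and DKO 3, were again above all others, and no Mutyh-/- library overlapped a library of another genotype.

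In NeuN+ nuclei the mean of Loxl2 was 118 ± 23.1 CPM (SD, n = 3) in Mutyh-/- against 0.591 ± 0.144 CPM in WT, a ratio of 200-fold and a fitted log2 fold change of 7.63 (SE 1.22). In NeuN- nuclei it was 198 ± 47.8 CPM against 4.06 ± 0.432 CPM, a ratio of 48.7-fold and a log2 fold change of 5.61 (SE 0.91). Whether these log2 fold changes differ between the fractions was not tested. Ogg1-/- differed from WT by 0.26 (SE 1.77) on the log2 scale in NeuN+ and by 0.48 (SE 0.86) in NeuN-. For DKO the log2 fold change was 4.32 (SE 1.25) in NeuN+ and 2.68 (SE 0.83) in NeuN-, and without replicate 3 it was -0.27 and 0.26. Scaled over all 24 libraries, the order of the group means from the lowest was WT and Ogg1-/- in NeuN+, WT and Ogg1-/- in NeuN-, DKO in NeuN+, DKO in NeuN-, Mutyh-/- in NeuN+ and Mutyh-/- in NeuN-. Within each fraction WT and Ogg1-/- overlapped, and the place of both DKO groups rested on replicate 3.

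**Figure D1:**
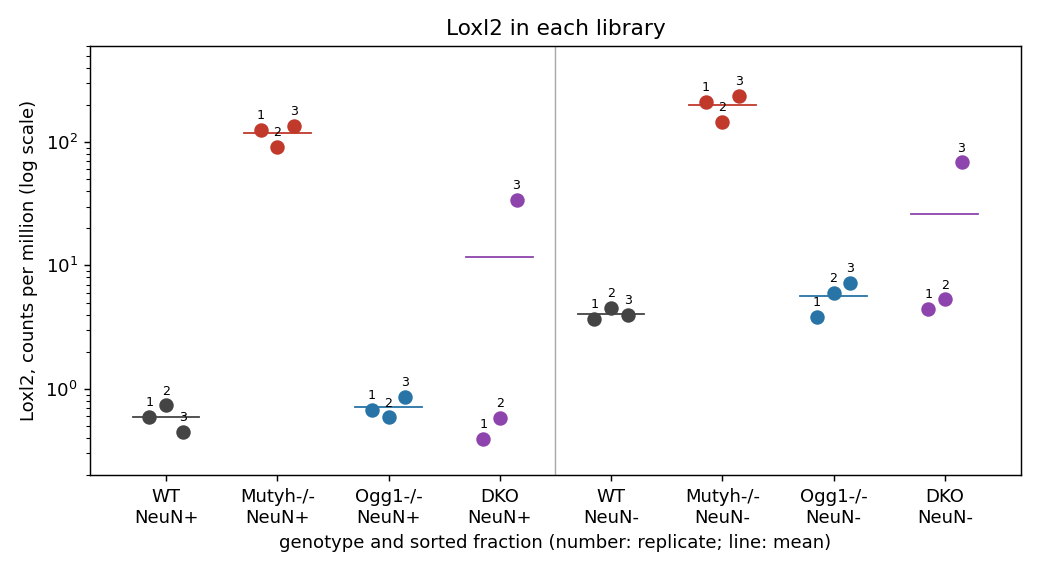
Loxl2 in CPM on a log scale in each of the 24 libraries, by genotype and sorted fraction, with the replicate number above each point and a line at the group mean. The 3 Mutyh-/- libraries lie between 91.8 and 136 CPM in NeuN+ and between 145 and 238 CPM in NeuN-, and DKO replicate 3 lies apart from DKO replicates 1 and 2 in both fractions.

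Slc25a37, the mitoferrin-1 gene, had the second largest difference among the members. In NeuN+ it was at 15.03, 16.4 and 15.7 CPM in WT and at 60.1, 47.6 and 72.6 CPM in Mutyh-/-. It was at 15.8, 15.9 and 17.1 CPM in Ogg1-/- and at 15.5, 15.4 and 30.7 CPM in DKO. The Mutyh-/- libraries did not overlap any other, and DKO replicate 3 again lay between them and the rest. In NeuN- the values were 29.7, 28.9 and 31.2 CPM in WT and 108, 86.0 and 118 CPM in Mutyh-/-. They were 33.7, 33.4 and 32.3 CPM in Ogg1-/-, all above the highest WT library, and 30.3, 32.2 and 54.5 CPM in DKO. The means of Mutyh-/- and WT stood at a ratio of 3.83-fold in NeuN+ and 3.47-fold in NeuN-, with log2 fold changes of 1.94 (SE 0.21) and 1.80 (SE 0.19). The log2 difference of Ogg1-/- from WT was 0.05 (SE 0.21) in NeuN+ and 0.15 (SE 0.18) in NeuN-. In DKO it was 0.39 (SE 0.21) and 0.38 (SE 0.18), and without replicate 3 it was -0.02 and 0.06.

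Entpd4 and its copy Entpd4b, the nucleotidase genes, were about 2.3-fold to 2.6-fold higher in the libraries labelled Mutyh-/- than in WT. Entpd4 in NeuN+ was at 47.6, 50.8 and 45.8 CPM in WT and at 109, 91.6 and 131 CPM in Mutyh-/-. It was at 45.6, 45.5 and 46.2 CPM in Ogg1-/- and at 49.9, 45.9 and 61.7 CPM in DKO. In NeuN- it was at 36.6, 33.0 and 29.0 CPM in WT and at 75.5, 59.0 and 116 CPM in Mutyh-/-. In Ogg1-/- the NeuN- values were 30.3, 29.6 and 33.8 CPM, and in DKO 33.7, 31.4 and 46.3 CPM. The Mutyh-/- libraries lay above all others in both fractions, and DKO replicate 3 was above every WT, Ogg1-/- and other DKO library. The log2 fold change of Entpd4 in Mutyh-/- was 1.20 (SE 0.11) in NeuN+ and 1.35 (SE 0.21) in NeuN-, and Entpd4b gave 1.20 (SE 0.11) and 1.36 (SE 0.21). In Ogg1-/- Entpd4 differed by -0.07 in each fraction. In DKO it differed by 0.13 (SE 0.11) and 0.18 (SE 0.21), and without replicate 3 by -0.0041 and -0.0098.

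The 3 members beyond the end of Loxl2 differed less from WT in Mutyh-/-, by -0.23 to 0.14 on the log2 scale over both fractions. R3hcc1 in NeuN+ was at 4.11, 3.85 and 4.24 CPM in WT and at 3.78, 3.12 and 3.47 CPM in Mutyh-/-, so the Mutyh-/- libraries were all slightly lower. Its NeuN- values overlapped, with 10.1, 9.53 and 9.68 CPM in WT and 9.82, 11.03 and 9.25 CPM in Mutyh-/-. The log2 difference of R3hcc1 was -0.23 (SE 0.09) in NeuN+ and 0.04 (SE 0.09) in NeuN-. DKO replicate 3 of R3hcc1, at 3.80 CPM, lay between the other DKO libraries in NeuN+, and at 8.80 CPM it was the lowest of the 3 in NeuN-.

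Chmp7, the ESCRT-III gene, was at 13.7, 15.9 and 14.8 CPM in WT NeuN+ and at 12.7, 13.7 and 12.6 CPM in Mutyh-/- NeuN+. In NeuN- it was at 34.02, 30.9 and 30.6 CPM in WT and at 32.8, 32.4 and 30.3 CPM in Mutyh-/-. Its log2 difference was -0.19 (SE 0.08) in NeuN+ and 0.00 within rounding (SE 0.06) in NeuN-. The Ogg1-/- and DKO groups gave -0.19 and -0.21 in NeuN+, close to the Mutyh-/- value, and -0.12 in NeuN- for both. Rhobtb2, the cullin 3 adaptor gene, was at 25.7, 31.5 and 31.3 CPM in WT NeuN+ and at 32.2, 33.4 and 32.1 CPM in Mutyh-/- NeuN+. In NeuN- it was at 23.5, 24.4 and 25.7 CPM in WT and at 26.5, 26.8 and 24.4 CPM in Mutyh-/-, with log2 differences of 0.14 (SE 0.08) and 0.08 (SE 0.06). DKO replicate 3 was at 32.5 CPM in NeuN+ and 26.9 CPM in NeuN-, beside the other DKO libraries at 28.8 and 29.1 CPM and at 23.7 and 26.1 CPM. In NeuN+ all 3 Mutyh-/- libraries and DKO replicate 3 of Rhobtb2 thus lay above every other library, but DKO replicate 3 was not below the Mutyh-/- libraries as it was for Loxl2, with means of 32.6 ± 0.715 CPM (SD, n = 3) in Mutyh-/- and 29.5 ± 3.32 CPM in WT, while in NeuN- Mutyh-/- overlapped WT.

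**Figure D2:**
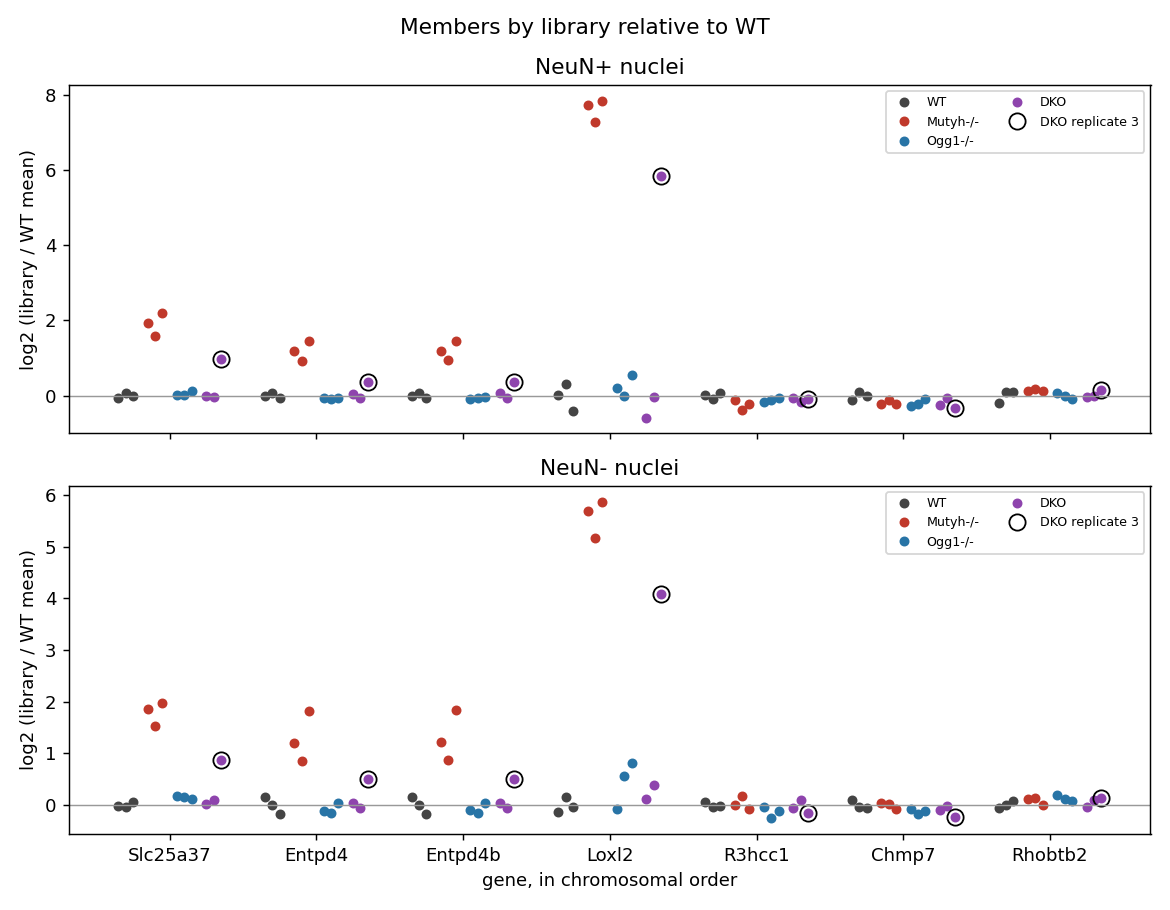
Each member in each library as log2 of its level over the WT mean of the same fraction, in chromosomal order, with genotypes in colour and DKO replicate 3 ringed. The Mutyh-/- libraries and the ringed point lie above 0 for Slc25a37, Entpd4, Entpd4b and Loxl2, while R3hcc1, Chmp7 and Rhobtb2 stay within a narrow band around 0 in all libraries. Within that band the Mutyh-/- libraries and the ringed point of Rhobtb2 are the highest in NeuN+.

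A gene was called when edgeR's quasi-likelihood test gave a Benjamini-Hochberg adjusted p below 0.05 with a log2 fold change beyond 0.5 in either direction. In Mutyh-/- against WT, 4 of 7 members were called higher in NeuN+ and 4 of 7 in NeuN-, against 0.428% and 0.273% of all genes called in either direction. They were Loxl2, Slc25a37, Entpd4 and Entpd4b each time, but the members had been chosen on these comparisons, so the counts are no evidence of their own. Entpd4 and Entpd4b are counted here as 2 members, though they stand for 1 measurement. With their counts summed, 3 members were called in NeuN+. In Ogg1-/-, 0 of 7 members were called in NeuN+ and 0 of 7 in NeuN-, where 0.574% and 0.229% of all genes were called, with 1 and 0 members at an unadjusted p under 0.05, which 12.3% and 11.8% of all genes reached, and 0 called by DESeq2. In DKO the count was also 0 of 7 in both fractions, beside 0.302% and 0.116% of all genes, with 2 and 1 members at an unadjusted p under 0.05, beside 13.5% and 12.4% of all genes. DESeq2 called 1 member, Loxl2, in DKO NeuN+ and 0 in DKO NeuN-. Fitted with WT and Mutyh-/- libraries only, the test again called 4 members in each fraction. Without WT replicate 1, 2 or 3, however, Loxl2 was no longer called in NeuN+, which left 3 members. In NeuN- only 1 member, Slc25a37, was called without any one of these WT replicates or without Mutyh-/- replicate 1.

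Between the single knockouts, the log2 difference of Loxl2 in Ogg1-/- against Mutyh-/- was -7.37 (SE 1.17) in NeuN+ and -5.13 (SE 0.89) in NeuN-. For Slc25a37 it was -1.89 (SE 0.21) and -1.65 (SE 0.18), and for Entpd4 -1.27 (SE 0.11) and -1.42 (SE 0.21). R3hcc1, Chmp7 and Rhobtb2 differed by -0.17 to 0.11 in the same comparison.

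In DKO replicate 3 the excess over WT was a partial share of the excess in Mutyh-/-. With the excess taken as the CPM of that library minus the WT mean, and compared with the mean of Mutyh-/- minus the WT mean, Loxl2 reached 28.5% in NeuN+ and 33.2% in NeuN-. Slc25a37 reached 33.8% and 33.2%, and Entpd4 21.8% and 26.6%. Over the neighbours between Slc25a37 and Loxl2 with at least 10 counts in each WT library of the fraction, a limit chosen after seeing the data, the median share was 33.4% in NeuN+ (16 genes, 12.0% to 90.8%) and 32.3% in NeuN- (12 genes, 27.9% to 56.2%). These genes share sequence with one another and come from 1 library per fraction, so they are not independent. Among the Mutyh-/- libraries, replicate 2 was the lowest and replicate 3 the highest for Loxl2, Slc25a37, Entpd4 and Entpd4b in both fractions.

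**Figure D3:**
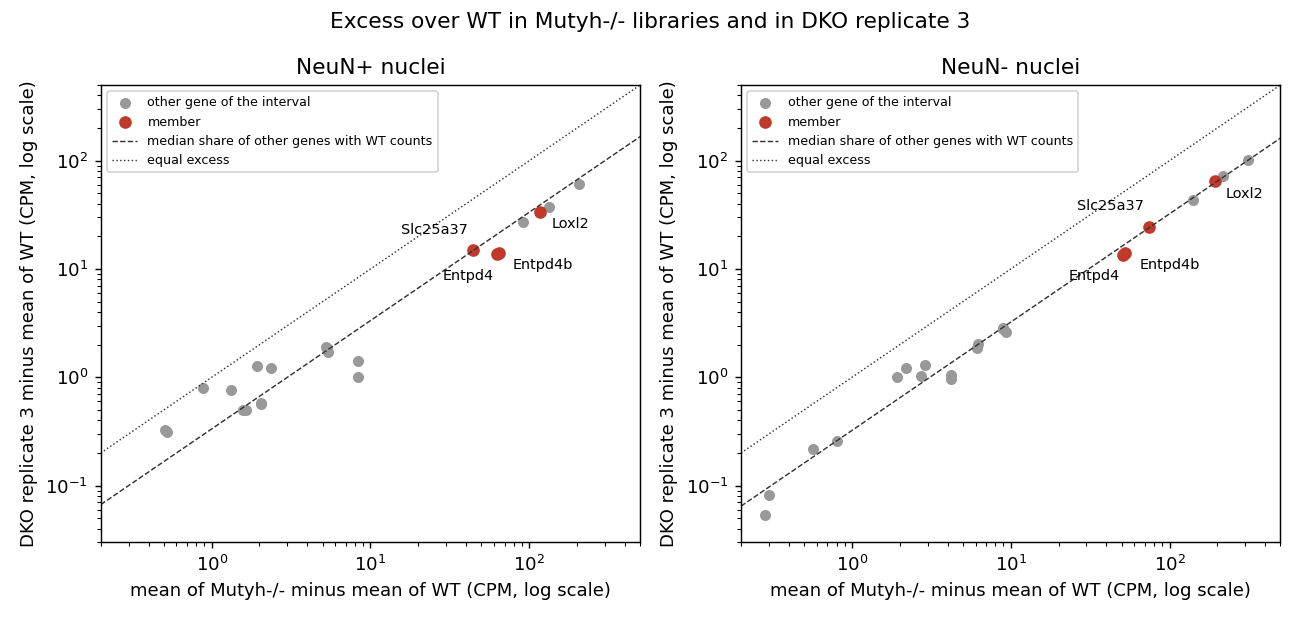
Excess over the WT mean in DKO replicate 3 against the mean excess of the 3 Mutyh-/- libraries, in CPM on log axes, for the 22 tested genes from Slc25a37 to Loxl2 in each fraction, with members in red. The points of the members lie near the dashed line, the median share of the other genes with at least 10 counts in each WT library (33.4% in NeuN+ and 32.3% in NeuN-), and below the dotted line of equal excess.

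Within 1 Mb of Loxl2, the genes called in Mutyh-/- lay from Slc25a37 to Loxl2, apart from 1, Npm2. From Slc25a37 to Loxl2, 454 kb that hold 23 annotated genes, 22 genes were tested in each fraction, the 4 members there included. Of the 18 that are not members, 16 had at least 10 counts in each WT library of NeuN+ and 12 in each of NeuN-. The others, among them Gm38378 and Gm37513, which were at 0 counts in WT NeuN+, are left out of the values that follow, since they could enter the test through the libraries in which they were high. The log2 difference in Mutyh-/- was 0.73 to 5.81 in NeuN+ and 0.74 to 4.96 in NeuN-, with medians of 1.39 and 1.74. Several of these genes share reads with the members, so they do not count as independent of them. In Ogg1-/- the medians were -0.02 and 0.06. In DKO they were 0.37 and 0.35, and without DKO replicate 3 they were -0.06 and -0.05, with differences from -0.36 to 0.31 and from -0.30 to 0.20. On the left, Stc1, the stanniocalcin 1 gene, had a log2 difference in Mutyh-/- of -0.08 (SE 0.13, adjusted p = 0.80) in NeuN+ and -0.55 (SE 0.36, adjusted p = 0.53) in NeuN-. On the right, the difference in NeuN+ was 7.63 for Loxl2 and -0.23 for R3hcc1, the next gene, and Rhobtb2 farther on was at 0.14, with its Mutyh-/- libraries all above WT. Beyond Rhobtb2, Pebp4 was the nearest gene, at 0.23 (SE 0.07, adjusted p = 0.13) in NeuN+ and -0.25 (SE 0.24, adjusted p = 0.69) in NeuN-.

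Outside this stretch, 36 genes within 1 Mb of Loxl2 were tested in NeuN+ and 35 in NeuN-, R3hcc1, Chmp7 and Rhobtb2 included. Their median log2 difference in Mutyh-/- was 0.05 in NeuN+, with a range of -0.88 to 1.06, and -0.09 in NeuN-, with a range of -0.55 to 0.63. The upper end in NeuN+ overlapped the values of 0.73 and above on the stretch. It was held by Fgf17, a fibroblast growth factor gene singled out after its values were seen, which was not called (SE 0.36, edgeR adjusted p = 0.14). Only Npm2, a histone chaperone gene at chr14:70647302-70659244 known from oocytes, was called, and only in NeuN+. It was at 1.53, 1.48 and 1.60 CPM in WT NeuN+ and at 3.02, 2.67 and 2.19 CPM in Mutyh-/- NeuN+, a log2 fold change of 0.77 (SE 0.15, adjusted p = 0.037). In NeuN- its log2 difference was 0.17 (SE 0.13, adjusted p = 0.61). All 3 Ogg1-/- libraries of NeuN+ were above WT too, at 1.89, 2.05 and 2.02 CPM. Npm2 was at 2.19 CPM in DKO replicate 3, against 1.73 and 1.46 CPM in the other DKO libraries of NeuN+. The difference between the fractions was not tested.

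**Figure D4:**
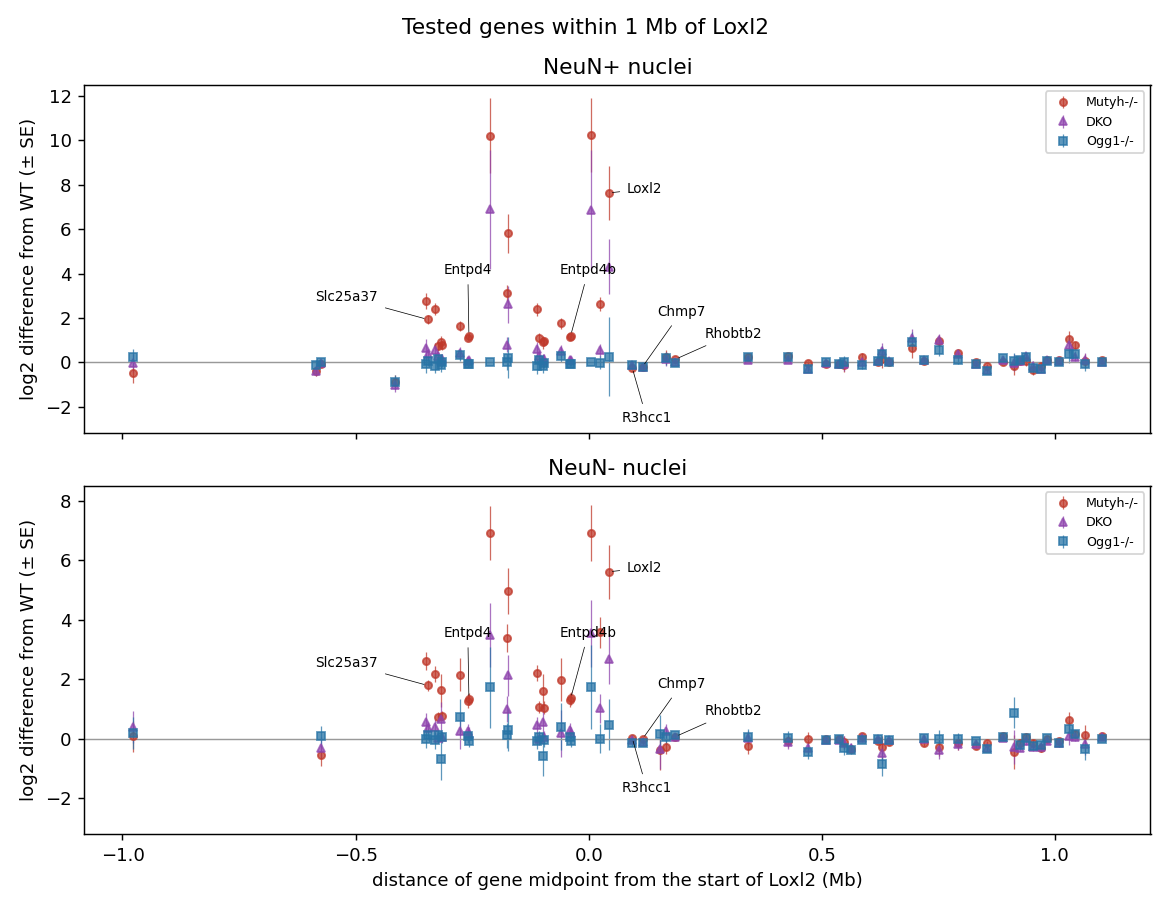
Log2 difference from WT with its SE for each tested gene within 1 Mb of Loxl2, against the distance of its midpoint from the start of Loxl2 in Mb, for Mutyh-/-, DKO and Ogg1-/- in NeuN+ and NeuN- nuclei. The genes from Slc25a37 to Loxl2 hold the highest differences in Mutyh-/-, those of genes at 0 counts in WT among them. To the left of that stretch all 4 genes tested in NeuN+ are below 0 in Mutyh-/- and in DKO, and 2 of 4 in Ogg1-/-, and to its right the genes lie on both sides of 0.

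The counts of a gene and its copy can be compared within a library. Entpd4 stood at 0.969 to 0.984 of the Entpd4b count in all 24 libraries. Loxl2 stood at 0.200 to 0.267 of the Gm21451 count in WT NeuN+ and at 0.229 to 0.278 in Ogg1-/- NeuN+. In Mutyh-/- the ratio was 0.869 to 0.877 in NeuN+ and 0.868 to 0.881 in NeuN-, so the ranges of both fractions overlapped. WT NeuN- libraries had ratios of 0.538 to 0.579. In DKO replicate 3 the ratio was 0.855 in NeuN+ and 0.864 in NeuN-, near the Mutyh-/- libraries, while DKO replicates 1 and 2 were at 0.172 and 0.286 in NeuN+. Gm21451 itself was at 2.23, 2.76 and 2.23 CPM in WT NeuN+ and at 144, 105 and 156 CPM in Mutyh-/- NeuN+. With the counts of Loxl2 and Gm21451 added together, a setting chosen after seeing the data, the log2 fold change in Mutyh-/- was 6.40 in NeuN+ and 5.23 in NeuN-. Of the 100-base words of Gm21451, 84.0% also occurred in Loxl2. How reads that fit both genes were counted is not given, so the sum may hold them under both names.

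**Figure D5:**
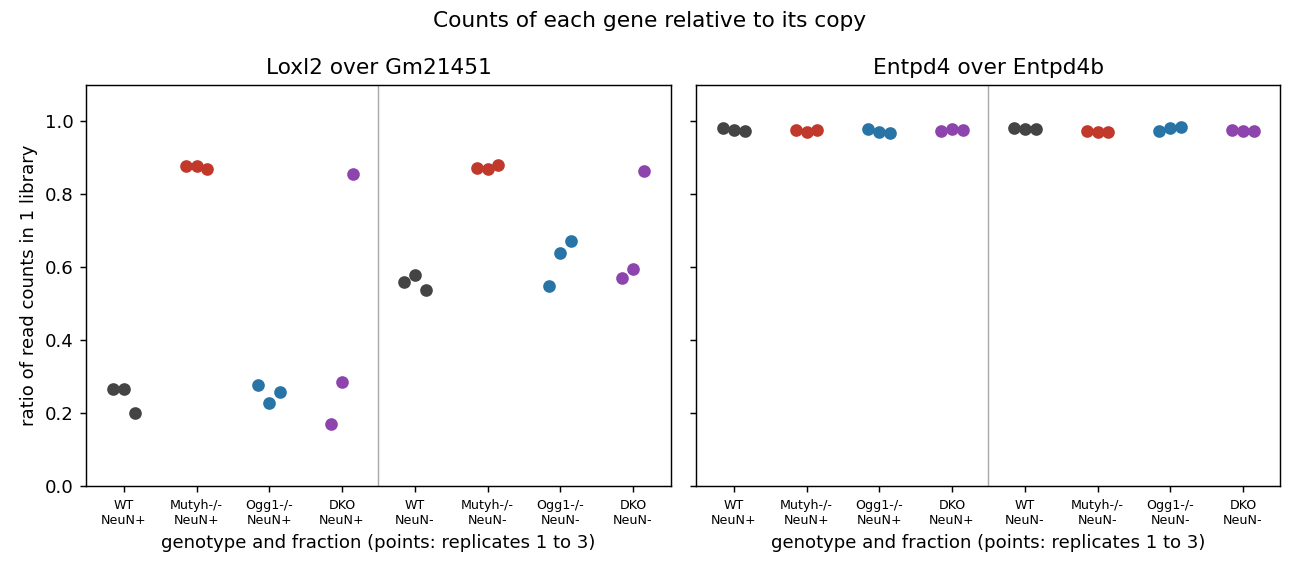
Ratio of read counts of Loxl2 to Gm21451 and of Entpd4 to Entpd4b in each library, by genotype and fraction. The first ratio is 0.868 to 0.881 in the Mutyh-/- libraries and 0.855 and 0.864 in DKO replicate 3, and lower elsewhere; the second stays between 0.969 and 0.984 throughout.

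The WT libraries show where these genes are normally read in the hippocampus. In bulk fractions, fewer nuclei of a type and less RNA per nucleus cannot be told apart. Levels are scaled over all 24 libraries here, and a difference was called when its adjusted p was below 0.05 and its size beyond 1 on the log2 scale, which 42.9% of all genes passed. R3hcc1 was the member called, and it was lower in NeuN+, at 4.405 ± 0.211 CPM (SD, n = 3) against 8.94 ± 0.305 CPM in NeuN-, a log2 difference of -1.02 (SE 0.09, edgeR adjusted p = 4.6e-10). Chmp7 was also lower in NeuN+, at 16.1 ± 1.14 against 29.2 ± 1.79 CPM, by -0.86 (SE 0.07, edgeR adjusted p = 5.0e-10). Slc25a37 was lower in NeuN+, at 17.0 ± 0.671 against 27.4 ± 1.14 CPM, by -0.69 (SE 0.22, edgeR adjusted p = 0.0082). Entpd4 was higher in NeuN+, at 52.1 ± 2.82 against 30.1 ± 3.54 CPM, by 0.79 (SE 0.18, edgeR adjusted p = 0.00052), and Rhobtb2 by 0.51 (SE 0.07, edgeR adjusted p = 1.5e-06), at 31.9 ± 3.39 against 22.5 ± 1.02 CPM. For each of these genes the 3 WT libraries of one fraction did not overlap the 3 of the other, as for 76.1% of all genes tested. Loxl2 was at 0.641 ± 0.158 CPM in NeuN+ and 3.72 ± 0.379 CPM in NeuN-, and its log2 difference of -2.53 (SE 1.44) had an edgeR adjusted p of 0.12 in the fit of all 24 libraries. That fit takes 1 spread for all groups, and the DKO group holds the library that stands apart. Fitted on the WT libraries alone, the difference was -2.54 with an edgeR adjusted p of 7.7e-09.

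Within each genotype the differences between the fractions kept the direction seen in WT for the members given here. The log2 difference of R3hcc1 between NeuN+ and NeuN- was -1.30 for Mutyh-/-, -0.9997 for Ogg1-/- and -1.08 for DKO. That of Chmp7 was -1.06, -0.92 and -0.94. Entpd4 was higher in NeuN+ by 0.64, 0.80 and 0.75, with edgeR adjusted p-values of 0.0030, 0.00045 and 0.00080. For Loxl2 the difference was -0.51 in Mutyh-/- (edgeR adjusted p = 0.60) beside -2.73 in Ogg1-/- (edgeR adjusted p = 0.065) and -0.88 in DKO (edgeR adjusted p = 0.39). In the knockouts the deviations of same-numbered libraries of the fractions had weak correlations, from 0.11 to 0.36. Those of WT with the knockouts, which were not taken as pairs, ran from -0.38 to 0.36. With the replicate number as a block, added after seeing the data, the difference of Loxl2 was -0.51 in Mutyh-/- (edgeR adjusted p = 0.045), -2.76 in Ogg1-/- (edgeR adjusted p = 6.3e-06) and -1.59 in DKO (edgeR adjusted p = 0.00016). The DKO value rested on replicate 3, at 37.2 CPM in NeuN+ and 62.7 CPM in NeuN- on the scale of all 24 libraries, while replicates 1 and 2 were at 0.431 and 0.635 CPM in NeuN+ and at 4.07 and 4.88 CPM in NeuN-. With both libraries of that replicate left out, also added after seeing the data, the DKO difference was -3.05 (edgeR adjusted p = 2.5e-07) and -3.07 with the block (edgeR adjusted p = 1.6e-10). The same setting gave -0.51 in Mutyh-/- (edgeR adjusted p = 0.010), -2.73 in Ogg1-/- (edgeR adjusted p = 1.1e-08) and -2.53 in WT (edgeR adjusted p = 1.8e-07). Whether these differences vary with genotype was not tested. Per kilobase of annotated exon, the WT levels in NeuN+ nuclei were 5.95 CPM for Entpd4, 2.91 for Rhobtb2, 2.61 for Slc25a37, 2.35 for Chmp7, 1.47 for R3hcc1 and 0.109 for Loxl2. In WT NeuN- they were 5.06 for Chmp7, 4.97 for Slc25a37, 4.07 for Entpd4, 3.53 for R3hcc1, 2.43 for Rhobtb2 and 0.752 for Loxl2. The level of Entpd4 per kilobase counts reads that also fit Entpd4b. In the NeuN+ libraries labelled Mutyh-/-, Loxl2 was at 21.8 CPM per kilobase and so the highest of the 7.

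The genes whose levels were most like those of Loxl2 and Entpd4 are given as a description. Over the 12 NeuN+ libraries, Pearson's r of log2 CPM with Loxl2 was highest for Gm21451 (0.998), Gm38378 (0.996) and Gm37513 (0.996). Over the 12 NeuN- libraries it was highest for Gm21451 (0.999), Gm16867 (0.993) and Gm27177 (0.989). These libraries form separate groups, those with high and those with low Loxl2, so r mostly reflects that division. Gm38378 and Gm37513, which form one of the offset pairs, were at 0 counts in every NeuN+ library except the Mutyh-/- libraries, with 114, 83 and 214 counts of Gm38378, and DKO replicate 3, with 47, so they entered the test through the libraries that are high in Loxl2 and their r is no separate evidence. Members left out, the genes most like Entpd4 were Gm27176 (0.990), Gm27221 (0.981) and Gm20236 (0.981) in NeuN+, and Gm27176 (0.980), Gm27221 (0.977) and Gm27175 (0.955) in NeuN-. Among members, Entpd4b had an r with Entpd4 of 0.99995 in NeuN+ and 0.99997 in NeuN-, and Slc25a37 had 0.987 and 0.952. Slc25a37 had an r with Loxl2 of 0.979 in NeuN+ and 0.980 in NeuN-, while Rhobtb2 had 0.67 and 0.22, Chmp7 -0.39 and 0.06, and R3hcc1 -0.59 and 0.14.

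Genes with functions related to the members were looked at as lists. From 7 lists of such genes, 58 genes in all, 56 were tested in NeuN+ and 57 in NeuN-, and edgeR called 0 of them in each of the 6 comparisons of a knockout with WT. With 0.116% to 0.574% of all genes called in these comparisons, a count of 0 in lists of this size is at the background. Unadjusted p-values under 0.05 were found for 9 of them in Mutyh-/- NeuN+, for 8 in Ogg1-/- NeuN+ and for 7 in DKO NeuN+, and for 5, 4 and 9 in the same genotypes of NeuN-. Over all genes the share at such p-values was 18.7%, 12.3% and 13.5% in NeuN+ and 13.7%, 11.8% and 12.4% in NeuN-. DESeq2 called 0 in 4 of the comparisons, 1 in Ogg1-/- NeuN- and 2 in DKO NeuN-. In Mutyh-/- the median log2 difference of the lists was -0.04 in NeuN+ and 0.02 in NeuN-, near the -0.01 of all genes in each fraction.

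The other lysyl oxidase genes had a median log2 difference in Mutyh-/- of 0.31 in NeuN+, where 3 were tested, and 0.14 in NeuN-, where 4 were tested. Among them, Loxl3 had the highest CPM, at 2.22 ± 0.254 CPM (SD, n = 3) in Mutyh-/- NeuN+ and 2.37 ± 0.214 CPM in WT NeuN+, with a log2 difference of -0.10 (SE 0.12, edgeR adjusted p = 0.72). In NeuN- it was at 18.2 ± 0.179 against 18.9 ± 1.75 CPM. The substrate genes of these enzymes had a median log2 difference of -0.07 in Mutyh-/- NeuN+ and 0.27 in Mutyh-/- NeuN-. Col4a2, a basement membrane collagen with the highest CPM of that list, was at 120 ± 2.74 against 122 ± 2.76 CPM in NeuN+. For the family of Entpd4, Entpd1, the nucleotidase known as CD39 of microglia, was at 173 ± 31.3 CPM in Mutyh-/- NeuN- against 127 ± 2.59 CPM in WT, by 0.44 (SE 0.13, edgeR adjusted p = 0.19), and by -0.32 (SE 0.10, edgeR adjusted p = 0.13) in NeuN+.

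Beside Slc25a37, the 17 genes of mitochondrial iron import, haem and iron-sulphur synthesis had a median log2 difference of -0.01 in Mutyh-/- NeuN+ and -0.02 in NeuN-, all between -0.31 and 0.19. Alas2, the erythroid enzyme of the first step of haem synthesis, had the highest CPM of that list in NeuN+. It was at 57.1 ± 2.75 CPM in Mutyh-/- NeuN+ against 59.5 ± 2.53 CPM in WT NeuN+. The list of 4 erythroid markers, of which Alas2 made up most of the summed level, had a median log2 difference of -0.43 in Mutyh-/- NeuN+ and 0.38 in Mutyh-/- NeuN-. Its summed level was 62.1 to 68.3 CPM in Mutyh-/- NeuN+ and 66.6 to 72.8 CPM in WT NeuN+, and 32.6 to 38.3 CPM and 32.7 to 37.3 CPM in NeuN-. The part of erythroid RNA in the level of Slc25a37 was not tested. Of the 13 ESCRT-III genes and partners of Chmp7, Ist1 had the highest CPM in NeuN+, at 42.6 ± 1.04 against 42.1 ± 0.937 CPM. Cul3, the ligase partner of RHOBTB2, was at 69.0 ± 2.02 against 70.5 ± 3.47 CPM, and R3hdm1, another R3H-domain gene, at 415 ± 14.97 against 395 ± 19.0 CPM in NeuN+.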

How the data were processed

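Nuclear RNA was sequenced from sorted hippocampal NeuN+ and NeuN- nuclei of 4 genotypes, 3 replicates per group. Per the labels, the authors deposited raw read counts per gene, 1 table per fraction, made on GRCm38 with HISAT2 2.1.0, SAMtools 1.10 and featureCounts after FastQC 0.11.9, with edgeR 3.42.4 and R 4.3.2 also named in the submitters' processing notes. Handling of strand, overlaps and multiply mapped reads is not given in the sources used here. All 24 columns were used.

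Counts were fitted per fraction over 4 genotypes, and over 24 libraries for WT NeuN+ against NeuN-, with edgeR 4.0.16 (TMM, default low-count filter, quasi-likelihood test, Benjamini-Hochberg adjustment over 30132, 31863 and 33523 genes) in R 4.3.3. SE is the fold change divided by the root of F. The scripts were checked on simulated data. DESeq2 1.42.0 and other settings served as alternatives. Positions and transcripts are from GENCODE M21 on GRCm38, matched by symbol for 53143 of 55254 genes, and transcripts were aligned with Biopython 1.88. Totals per library were 56563586 to 96192142 counts. Replicates were not duplicates: at least 94.9% of detected genes had unequal counts in any pair.

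Genes named were the members, Ogg1 and Mutyh, neighbours within 1 Mb that were called or nearest to the members, the 3 genes most like Loxl2 and Entpd4, and in each list of related genes those called and the one of highest level. Gm21451 and Gm16867 were also named for the sequence they share with members, and Gm27177 for running antisense to Loxl2. The members and lists were chosen with earlier results of these data known. One neighbouring gene that this rule names is not reported here.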

Additional observations from a re-analysis of the deposited data

How the results depend on the processing

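No called difference changed direction. In Mutyh-/- against WT, the number of called members stayed at 3 or 4 of 7 under every setting that kept all libraries, and with 3 only where Entpd4 and Entpd4b were summed to 1 gene. Leaving out 1 library at a time gave 3 to 4 called members in NeuN+ and 1 to 4 in NeuN-. The log2 fold change of Loxl2 then ran from 7.47 to 7.83 in NeuN+ and from 5.46 to 5.79 in NeuN-. Loxl2 was no longer called without WT replicate 1 (7.64), 2 (7.83) or 3 (7.47) in NeuN+. In NeuN- Loxl2, Entpd4 and Entpd4b were no longer called without WT replicate 1, 2 or 3 or Mutyh-/- replicate 1, with Loxl2 at 5.54, 5.69, 5.60 and 5.56 and Entpd4 at 1.43, 1.35, 1.26 and 1.41, so 1 member was called each time. The cause was not tested. In DKO NeuN+ the main count of 0 became 1, Loxl2, with DESeq2 (log2 fold change 4.31) and with no low-count filter (4.34), and ran from 0 to 1 with 1 library left out, as Loxl2 was called without DKO replicate 1 (4.87). Loxl2 ranged from -0.27 to 4.87 in DKO NeuN+ and from 0.26 to 3.19 in DKO NeuN-, with the lowest values without DKO replicate 3.

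For WT NeuN+ against NeuN-, the main count of 1 member became 2 with DESeq2, with the replicate block and with the WT libraries only, since Loxl2 was then called too (-2.55, -2.54 and -2.54 on the log2 scale, adjusted p = 0.027, 4.4e-05 and 7.7e-09). With no limit on the size of the difference it became 6. It was 0 without WT NeuN+ replicate 2 or WT NeuN- replicate 1, where R3hcc1 was at -0.98 and -0.99, and 0 to 1 over all libraries left out, with Loxl2 between -2.71 and -2.36 and its adjusted p between 0.15 and 0.22. The replicate block changed no call of a member in a knockout against WT: in Mutyh-/- NeuN+ Loxl2 had 7.996 with it. Same-numbered WT libraries of the fractions had correlations of deviations from -0.00031 to 0.17, and those of WT and the knockouts from -0.38 to 0.36, so the numbers were not taken to pair these samples. Between the fractions of each knockout all 9 such correlations were above 0.1, from 0.11 to 0.36, and there the replicate block raised Loxl2 past the threshold in Ogg1-/- (-2.76) and DKO (-1.59). Without DKO replicate 3 in both fractions it was past the threshold in Ogg1-/- (-2.73, and -2.76 with the block) and DKO (-3.05 and -3.07), and R3hcc1 in Ogg1-/- went from -0.9997 to -1.001. Over all genotypes 19 of 24 libraries correlated best with their own number. Another scaling moved the median of all genes by at most 0.0059 on the log2 scale. Loxl2 had only 29 to 49 counts in WT NeuN+, and the part of these low counts in the SE of its fold there was not tested.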
